A study of Arabidopsis thaliana with 12 samples.

Results

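The plastid chromosome of Arabidopsis thaliana carried 67 of the 18273 genes for which ribosome profiling listed a translated open reading frame (ORF) in root or shoot. Its genes were taken as all ORFs placed on chromosome Pt in either tissue, grouped by gene identifier, with 1 ORF per gene in each tissue. The seedlings were wild-type plants of the Col ecotype, aged 4 days after imbibition, grown in sterile liquid medium with 1% sucrose at 22 °C under 16 hours of light and 8 hours of darkness. Roots and shoots were collected 3 hours after lights on. Ribosome profiling reads the pieces of RNA that translating ribosomes shield from nuclease, and the tables gave 1 whole-number count per ORF for each tissue, although the labels name 3 ribosome profiling samples a tissue. The spread between replicates is therefore unknown for every value below and nothing was tested for significance. Intervals are exact 95% Poisson or binomial intervals and cover counting error only.

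Plastids descend from a cyanobacterium and keep a small genome of their own, which is read by RNA polymerases and ribosomes inside the organelle. Most of its protein genes encode core subunits of the photosynthetic complexes of the thylakoid membrane or parts of the plastid's own gene expression machinery. The remaining subunits of these complexes are encoded in the nucleus and imported. In shoots plastids become green chloroplasts, whereas root plastids are mostly non-green and serve fatty acid, amino acid and starch metabolism.

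All 67 plastid genes had an ORF in shoot, 14 had one in root as well, and 0 were listed in root only. The share listed in shoot only was 79.1% (53 genes, interval 67.4 to 88.1), against 8.30% of all genes with an ORF in either tissue. The share listed in both tissues was 20.9% (11.9 to 32.6), against 80.3% of all genes, and 11.4% of all genes were listed in root only. Plastid genes held 2665551 counts in shoot, or 2.79% (2.788 to 2.795) of the sum over genes, and 53346 counts in root, or 0.0470% (0.0467 to 0.0475), a 59.3-fold difference in share. Because only called ORFs are listed, this difference also contains the 53 genes that root does not list. It contains rbcL, psaA and psaB as well, which held 42.0%, 5.22% and 4.66% of the plastid counts in shoot and whose coding ORFs root does not list. A gene missing from root was not shown to be untranslated there. Of the tissue markers examined, LHCA1 and RBCS1A had 6525 and 29379 counts in root and 176900 and 1065418 in shoot, SPCH was listed in shoot only, PYK10, a root marker, had 1719622 in root and 802039 in shoot, and EXPA7 and CASP1 had 17572 and 19925 counts in root against 304 and 380 in shoot. In whole organs, fewer cells of a type, fewer plastids per cell and less RNA per plastid cannot be told apart.

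Within shoot, genes of the photosynthetic complexes other than NDH had the highest median levels, and the NDH complex and the RNA polymerase the lowest among the complexes. Levels are given as counts per codon of the listed ORF, so that long and short genes can be set side by side. The median over the 67 genes was 74.4 counts per codon (quartiles 16.5 and 157), against 3.64 (1.42 and 10.3) over 16123 nuclear genes, and 66 of the 67 stood above that nuclear median. rbcL, the large subunit of the carbon-fixing enzyme Rubisco, stood alone at 2339 counts per codon (2335 to 2344), on Pt from 54959 to 56396 in TAIR10. It was 1 of the 10 nuclear or organellar genes with the most shoot counts per codon, and 4 plastid genes were among the highest 100. rbcL held 42.0% of all plastid counts in shoot. The 10 plastid genes with the largest counts held 82.0%.

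**Figure D1:**
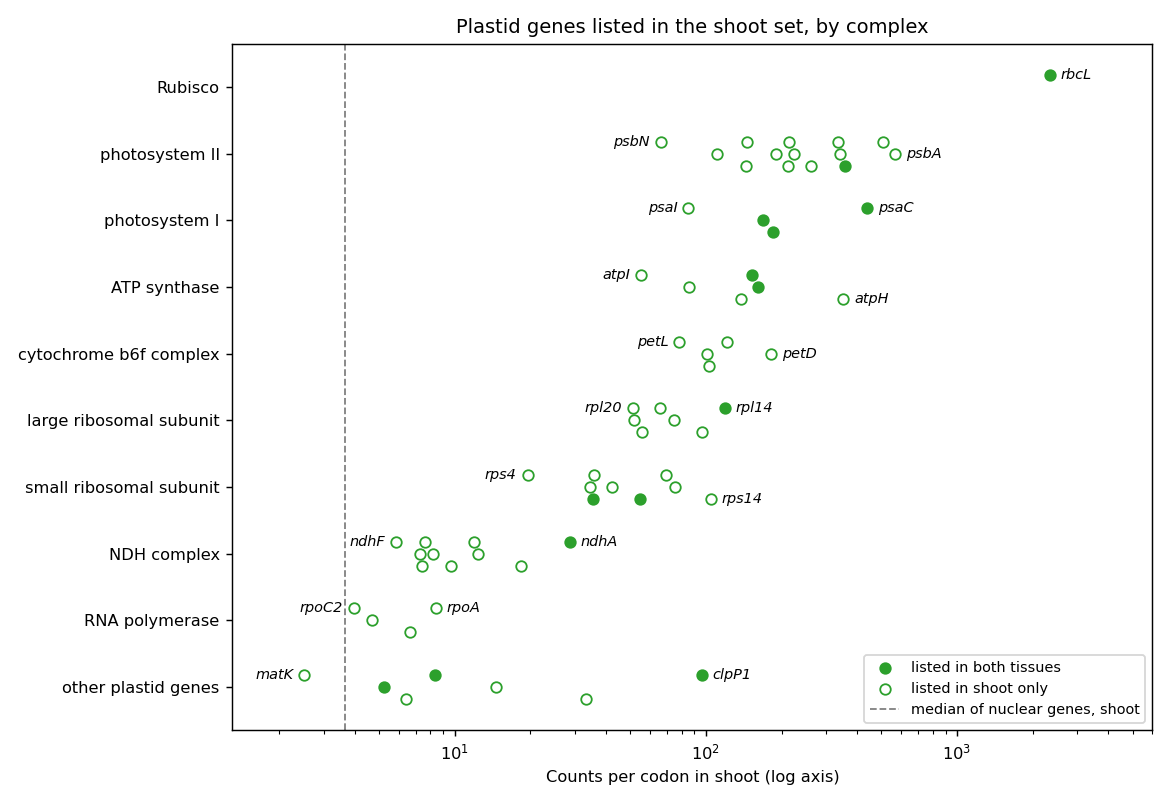
Counts per codon in shoot (log axis) of the 67 plastid genes, grouped by complex. Filled points are genes listed in both tissues and open points genes listed in shoot only; the dashed line is the median of nuclear genes at 3.64. rbcL lies at 2339, the photosystem, ATP synthase and cytochrome genes between 55.4 and 567, and the NDH and RNA polymerase genes between 3.97 and 28.6.

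Photosystem II splits water and feeds electrons into the thylakoid chain. Its 14 listed genes of 15 held 27.0% of the plastid counts in shoot, with a median of 220 counts per codon. psbA, for the D1 reaction centre protein that is replaced continually in the light, had 567 counts per codon (564 to 569) and lay on Pt from 386 to 1443. psbI, a small reaction centre subunit of 36 codons, had 509 (502 to 516). psbB, for the CP47 antenna protein, had 357 and psbD, for the D2 protein, 335. psbC, for the CP43 antenna protein, had 225, and its listed ORF overlapped that of psbD by 51 bases, so that fragments there could belong to either gene. psbE and psbF, the subunits of cytochrome b559, had 342 and 263. psbN, which is needed for photosystem II assembly and is not a stable subunit, was lowest at 66.0 counts per codon. Between these lay psbK (215), psbL (212), psbH (190), psbZ (145), psbM (144) and psbJ (111), and the intervals of psbK and psbL and of psbZ and psbM overlapped.

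Photosystem I, the second light-driven complex, was listed with 4 of 5 genes and held 10.9% of the plastid counts. Its reaction centre proteins psaA and psaB, which bind the central chlorophylls as a pair, stood close together at 186 (185 to 187) and 169 (168 to 170) counts per codon. psaC, the iron-sulfur subunit that passes electrons to ferredoxin, had 437 over a listed ORF of 54 codons. psaI was lowest at 85.2. The small psaJ had no listed ORF.

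The ATP synthase was listed with all 6 genes, at 8.88% of the plastid counts. atpH, for the membrane c subunit that is present in many copies as a ring, had 352 counts per codon (348 to 356). The catalytic head subunits atpA and atpB, which occur in equal number, had 161 and 153. atpF, part of the peripheral stalk, had 138, atpE, the epsilon subunit, 85.5, and atpI, the a subunit, 55.4. The highest of the 6 was thus 6.35 times the lowest. The cytochrome b6f complex, which links both photosystems, was listed with 5 of 6 genes and spanned a narrower range. petD (subunit IV) had 182 counts per codon, petA (cytochrome f) 121, petG 102, petB (cytochrome b6) 101 and petL 78.4, a 2.32-fold range, and the intervals of petG and petB overlapped.

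The NDH complex, which returns electrons to plastoquinone in cyclic electron flow, was far lower. Its 10 listed genes of 11 had a median of 8.94 counts per codon and held 1.18% of the plastid counts. ndhA was highest at 28.6 (28.1 to 29.2), followed by ndhE (18.3), ndhJ (12.4) and ndhK (11.9), and ndhF was lowest at 5.85. The intervals of ndhG, ndhC, ndhI and ndhH, between 7.26 and 8.21, overlapped from each gene to the next. The 4 subunits of the plastid-encoded RNA polymerase were lower still, with rpoA at 8.40, rpoC1 at 6.66, rpoB at 4.66 and rpoC2 at 3.97 counts per codon, and held 0.620% of the counts.

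Ribosomal proteins had medians below those of both photosystems, the ATP synthase and the cytochrome b6f complex and above those of NDH and the RNA polymerase, and single genes overlapped with the former. The 7 listed genes of the large subunit had a median of 65.7 counts per codon, from rpl20 (51.3) to rpl14 (119). The 9 of the small subunit had a median of 42.2, from rps4 (19.5) to rps14 (105). Together the ribosomal protein genes held 4.19% of the plastid counts. Among the other genes, clpP1 (clpP in RefSeq), a proteolytic subunit of the Clp protease, had 96.2 counts per codon, which is in the range of the ribosomal proteins. The photosystem I assembly factors ycf4 and ycf3 had 33.2 and 14.6. accD, the beta subunit of the carboxyltransferase that makes malonyl-CoA for fatty acid synthesis, had 8.31, the cytochrome maturation gene ccsA 6.37 and ycf1, for a subunit of the import apparatus at the inner envelope, 5.23. matK, for an intron maturase, was lowest of all 67 at 2.52 and was the 1 plastid gene below the nuclear median. Of the 57 neighbours in these orders within a group, 10 had overlapping counting intervals.

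Genes next to each other on the same strand, many of which are known to share transcripts in plastids, had levels closer together than plastid genes in general. Over 52 such pairs of neighbours, the median difference was 0.90 in log2 counts per codon. It was 1.78 over the 14 pairs of neighbours on opposite strands and 2.07 over all 2211 pairs of plastid genes. These pairs share genes and are given as a description. Neighbours often encode subunits of the same complex, as in the psbE to psbJ and the rpoC2 to rpoB runs. Whether complex or shared transcripts bear on these differences was not tested. In the run psbE, psbF, psbL and psbJ, read in that order on the minus strand, levels went from 342 to 263, 212 and 111 counts per codon. The run atpI, atpH, atpF and atpA went from 55.4 to 352, 138 and 161, so neighbours also differed by several fold. psaC stood among the ndh genes at 437, while ndhD and ndhE on either side of it had 9.68 and 18.3.

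**Figure D2:**
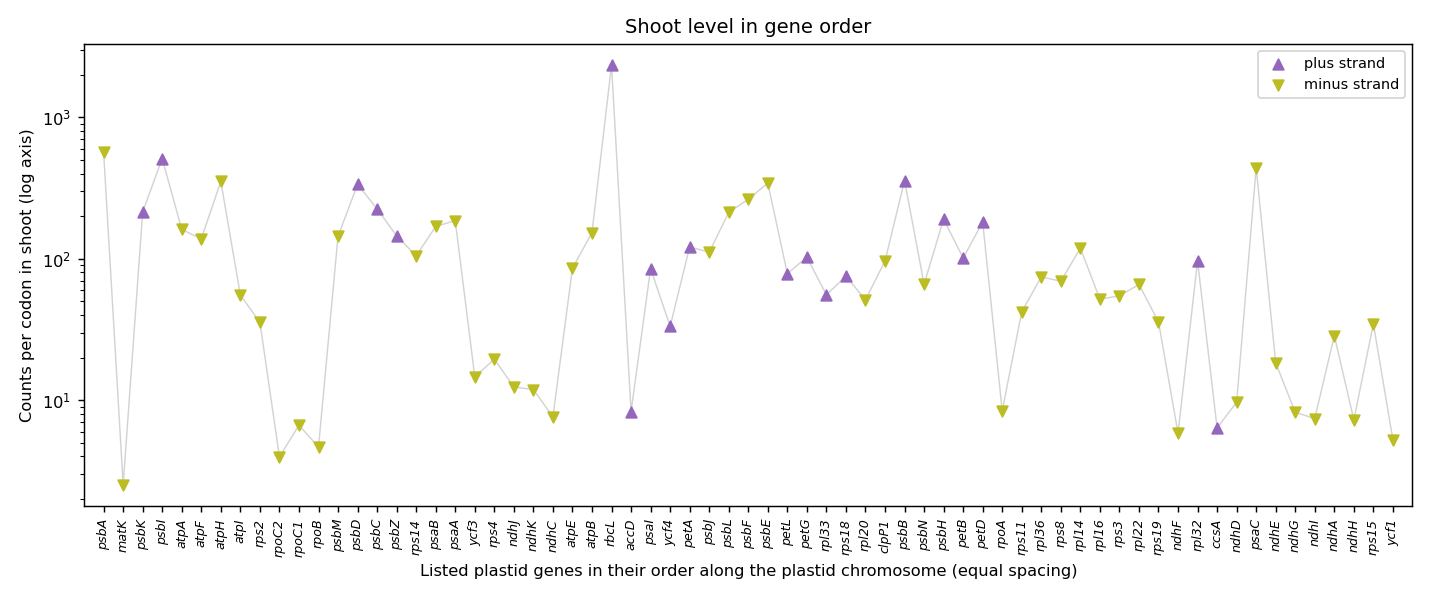
Counts per codon in shoot (log axis) of the 67 plastid genes in their order along the plastid chromosome, spaced equally, with triangles for the strand. Runs of neighbours at like levels are visible for the psbE to psbJ genes (342 to 111) and the rpoC2, rpoC1 and rpoB genes (3.97 to 6.66), with rbcL at 2339 next to accD at 8.31.

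Of the 79 plastid genes in the list used here, 12 had no ORF in either tissue. Of the 7 gene symbols with more than 1 entry in the RefSeq plastid annotation, which are copied in the inverted repeat or trans-spliced, 6 had none. These were ndhB, rps7, rps12, rpl2, rpl23 and ycf2, and the exception was ycf1. Of the 71 symbols with 1 entry, 66 had an ORF, and psbT, psaJ, petN, rps16 and cemA did not. How the authors treated reads that map to more than 1 place is not given in the sources used here, and whether it bears on these genes was not tested. The twelfth, ycf15, has no RefSeq entry.

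The listed shoot ORFs mostly ran from the first base of the annotated transcript. This was so for 58 of the 67, and the other 9 started later but in the same reading frame. rpoC2 started 120 codons in, rpoA 88, ndhG 78, rps19 43, ndhF 38, psaC 27, ndhD 26, matK 22 and ycf1 1. The start codon of ndhD is known to be created by RNA editing of ACG to AUG, and whether this bears on its listed start was not tested. 8 of the 67 ORFs had more than 1 exon block, among them clpP1 with 3, petB, petD and ndhA with 2 each.

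The 14 genes listed in both tissues were compared next. The identical ORF was listed in root and shoot for 7 of them, against 77.3% of all genes listed in both tissues. Another 4 shared the stop codon and reading frame but not the start. In atpA the root ORF covered the last 194 of 507 codons and in rps3 the last 162 of 218. In ycf1 it lacked 49 codons of the shoot ORF, and in psaC the root ORF was the longer, with 81 codons against 54.

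In the remaining 3 genes, rbcL, psaA and psaB, the root ORF was a short stretch inside the coding ORF and out of frame with it. The root ORF of rbcL had 3 codons and 572 counts (526 to 621), on Pt from 55758 to 55767. That of psaA had 18 codons and 353 counts (317 to 392), from 40084 to 40136. That of psaB had 23 codons and 662 counts (613 to 714), from 38088 to 38155. Each began 1 base past the frame of the shoot ORF, yet carried the category of annotated coding ORFs. Among 14292 nuclear genes with a coding ORF on the same transcript in both tissues, the root ORF lay inside the shoot ORF in 9.62% and was out of frame in 0 of these (0%). The rbcL ORF of 3 codons was the 1 largest ORF of a gene that was this short in root, and 0 were in shoot. The full coding ORFs of rbcL, psaA and psaB were not listed in root, so their counts in root and shoot come from different ORFs, no single fold is given for them, and the root count per codon of rbcL (191) is not a level of the gene.

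**Figure D3:**
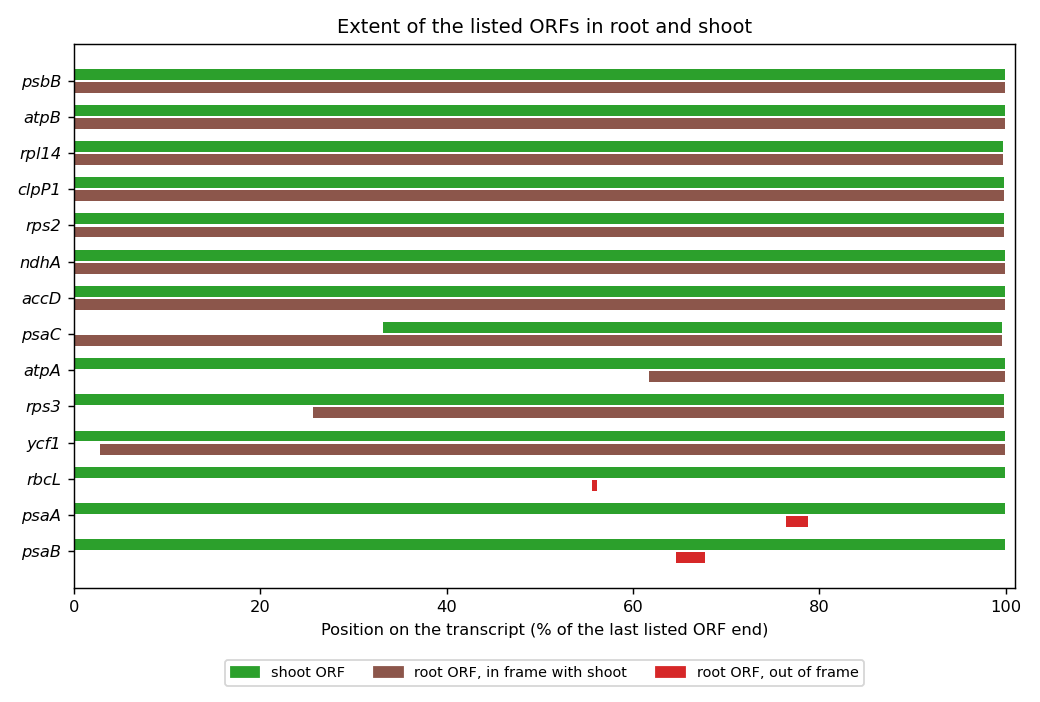
Extent of the listed ORF in shoot (green) and root (brown, or red where out of frame) for the 14 genes listed in both tissues, as percent of the transcript position of the last listed ORF end. The upper 7 genes have identical ORFs, the next 4 share the stop, and the root ORFs of rbcL, psaA and psaB are 3, 18 and 23 codons inside the coding ORF. The rbcL bar is drawn at the minimum visible width.

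Among the 7 genes with an identical ORF, 6 had a share of the shoot sum at least 4 times their share of the root sum, against 8.76% of all genes with an identical largest ORF and at least 100 counts in the higher tissue. Their median log2 ratio was 2.85. Over the 11 genes with an in-frame root ORF it was 10, against 9.53% of genes whatever their ORF, with a median log2 ratio of 2.85. With the 3 genes whose root ORF was out of frame it was 13 of 14, and the median was 3.30. The ratios of these 3 set counts of different ORFs against each other and give no fold of the gene. The median of all genes was -0.34 on the same scale, and -0.34 also among those with an identical ORF. Ratios use shares with 0.5 added to each count.

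psbB had 16708 counts in root and 181148 in shoot, a 12.9-fold higher share in shoot (12.7 to 13.1). rps2, a small subunit ribosomal protein, had 824 and 8391 counts and was 12.1-fold higher (11.3 to 13.0). atpB had 8782 and 76168 counts and was 10.3-fold higher (10.1 to 10.5). The intervals of psbB and rps2, a photosynthesis and a translation gene, overlapped, and that of atpB lay below both.

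ndhA had 1693 counts in root and 10305 in shoot and was 7.23-fold higher in shoot (6.87 to 7.61). rpl14 had 2475 and 14472 counts and was 6.94-fold higher (6.65 to 7.25). clpP1, on Pt from 69913 to 71881 in 3 blocks, had 5142 and 18860 counts and was 4.36-fold higher (4.22 to 4.49), just past the 4-fold size. accD, on Pt from 57076 to 58540, had 4163 counts in root and 4054 in shoot, a ratio of shares of 1.16 (1.11 to 1.21). It was the 1 plastid gene with an identical ORF whose shares lay within 4-fold, so the genes did not share 1 ratio.

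For the 4 genes with a shared stop the counts cover ORFs of different length, and ratios are given per codon. psaC had 2971 counts in root over the longer ORF and 23614 in shoot over the shorter. Its share was 14.2-fold higher in shoot per codon, or 9.44-fold by ORF count. atpA had 4384 and 81572 counts and was 8.45-fold higher per codon, or 22.1-fold by ORF count. ycf1 had 1770 and 9341 counts and was 6.09-fold higher per codon. rps3 had 2847 and 11897 counts and was 3.69-fold higher per codon but 4.96-fold by ORF count, so that its place on either side of 4-fold depends on the length used.

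**Figure D4:**
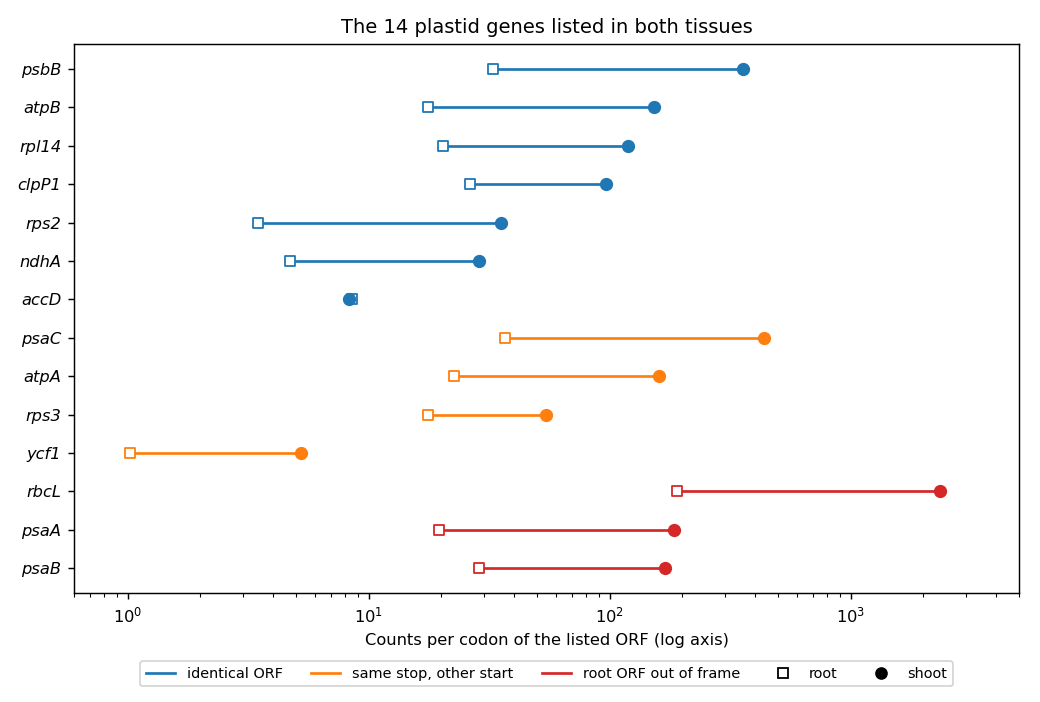
Counts per codon of the listed ORF (log axis) in root (open squares) and shoot (filled circles) for the 14 plastid genes listed in both tissues, coloured by how the ORFs match. accD lies at 8.53 in root and 8.31 in shoot, while the other identical ORFs lie to the right in shoot, up to psbB with 32.9 and 357. The red root values come from out-of-frame ORFs of 3 to 23 codons.

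In root the order of levels differed from that in shoot. Among the 11 genes whose root ORF was in frame, psaC (36.7 counts per codon), psbB (32.9), clpP1 (26.2), atpA (22.6) and rpl14 (20.3) were highest, followed by atpB (17.6) and rps3 (17.6). accD (8.53), ndhA (4.70), rps2 (3.49) and ycf1 (1.02) were lowest. accD stood above ndhA and rps2 in root and below both in shoot. psbB held 31.3% of the plastid counts listed in root. 11 of the 14 root values, the 3 out-of-frame ORFs included, stood above the nuclear median of 4.79 counts per codon.

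Genes listed in both tissues had more shoot counts than those in shoot only, with medians of 21237 and 4997 counts and of 136 and 66.0 counts per codon. Their ORFs were longer, with medians of 483.5 and 132 codons. The 14 include rbcL, psaA and psaB, whose coding ORFs root does not list. With 1120539, 139149 and 124154 shoot counts, these genes lie above the median count of their group and raise it. Shoot count alone did not separate the groups. Of the 53 genes listed in shoot only, 33 had more shoot counts than accD, the lowest of the 14. psbA (200090 shoot counts), psbD (118340) and psbC (106442) were among the 33. The root listings of plastid genes had at least 353 counts, whereas the smallest ORF count of the whole root set was 6.

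The plastid-encoded subunits were then set beside nuclear-encoded subunits of the same complexes, from lists of 88 nuclear genes, all found in RefSeq. Of these, 80 were listed in both tissues, 4 in shoot only and 4 in neither. 76 of the 80 had at least 4-fold higher shares in shoot and 1 had a 4-fold higher share in root, against 9.53% and 9.89% of all genes. Only genes listed in root have a ratio, so the plastid values stand for 10 genes and not for the 67. Listed in shoot only were 53 of the 67 plastid genes, psbA, psbD and psbC among them, against 8.30% of all genes. Of the 88 nuclear genes 4 were, all in the NDH list of 8, which leaves 4 of that list with a ratio. Requiring a root listing can leave out genes with few root counts. It can so favour smaller ratios in the plastid group and in the nuclear NDH list. The size of this effect and the differences between plastid and nuclear genes were not tested.

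clpP1, at 4.36-fold, was below 7 of the 8 nuclear subunits of the Clp core, which were 4.10-fold (CLPP5) to 5.81-fold (CLPR1) higher in shoot per codon. accD, at 1.16, was above 3 of the 4 nuclear subunits of the plastid acetyl-CoA carboxylase and below 1. The biotin carboxylase CAC2 and the alpha carboxyltransferase CAC3 had log2 ratios of -0.29 and -0.18, with 34790 and 32770 counts in root and 23929 and 24399 in shoot. The biotin carrier CAC1 had 0.64, and the second carrier BCCP2 was the gene on the root side, with 10353 counts in root and 864 in shoot. As the median of all genes was -0.34, CAC2 and CAC3 lie above it and change sign when ratios are taken relative to the median gene.

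In the photosynthetic complexes and the ribosome, as for clpP1 but not accD, the plastid genes compared had smaller ratios than most of their nuclear partners. psbB, at 12.9-fold, was below 11 of 12 nuclear photosystem II genes, which ranged from 12.0-fold (PSBR) to 34.7-fold (PSBQ1). atpB, at 10.3-fold, and atpA, at 8.45-fold per codon, were below all 3 of ATPG (18.3-fold), ATPC1 (19.6-fold) and ATPD (22.3-fold). psaC, at 14.2-fold per codon, was below all 12 nuclear photosystem I genes (16.3-fold for PSAE2 to 45.6-fold for PSAH2). ndhA, at 7.23-fold, was below the 4 nuclear NDH genes listed in both tissues (16.9-fold for NDHS to 61.9-fold for PNSB1 per codon). Of these 4, only PNSB1 had an identical ORF in root and shoot, and their root counts were 107 to 542. Of the ribosomal proteins, rps2 was below 20 of 21 nuclear plastid ribosomal genes, which ranged from 11.9-fold (RPS1) to 27.9-fold (RPL6), and rpl14 and rps3 were below all 21. Of the 10 plastid genes compared, 9 lay below the median of their nuclear list and 6 below every member of it.

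**Figure D5:**
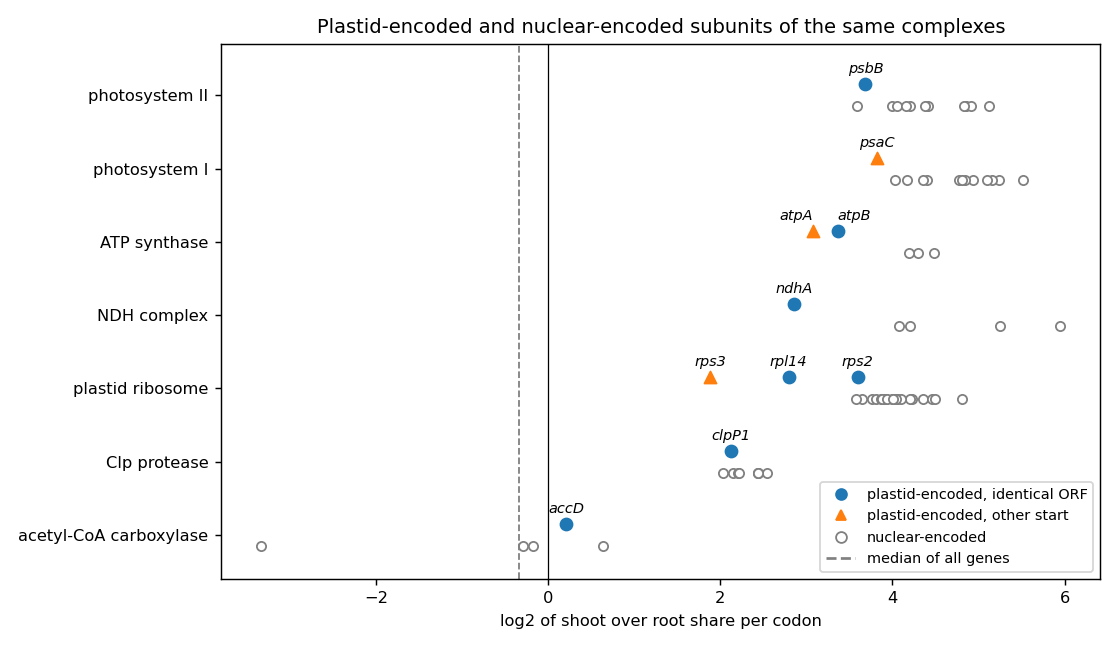
Log2 of the shoot share over the root share, per codon, of plastid-encoded genes (coloured) and nuclear-encoded genes (open grey circles) of 7 complexes. The dashed line is the median of all genes at -0.34, which was taken by ORF count and not per codon. clpP1, accD, psbB and rps2 lie within the range of their nuclear partners, and atpA, atpB, psaC, ndhA, rpl14 and rps3 to the left of all of theirs.

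Levels in shoot also differed between the genomes. The median level was 220 counts per codon for plastid and 490 for nuclear photosystem II genes, and 177 and 590 for photosystem I. It was 146 and 328 for the ATP synthase, 102 and 388 for the cytochrome b6f complex and 8.94 and 21.5 for the NDH complex. For ribosomal proteins it was 55.1 in the plastid list and 154 in the nuclear list. The RNA polymerase subunits had a median of 5.66, and their 12 nuclear partner proteins 14.4. For Rubisco, rbcL at 2339 counts per codon stood beside the small subunit genes RBCS1A at 5919 and RBCS2B at 2274, while RBCS1B and RBCS3B were not listed. The small subunit genes are near-identical copies, so the split of counts among them is uncertain. clpP1, at 96.2, stood above the median of its nuclear partners, which was 55.5, as did psbA, psbI, atpH and ndhA above those of theirs. How libraries recover footprints of plastid and cytosolic ribosomes was not measured here, and its part in these levels was not tested.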

How the data were processed

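Ribosome profiling and RNA-seq were made from 3 samples each of root and shoot, 12 samples in 4 groups per the labels; the RNA-seq was not used, so that transcript level and translation were not separated. The deposited tables give 1 whole-number count per ORF for each tissue, read as a raw count from the values because the tables have no header. Per the submitters' processing notes, Bowtie2, STAR 2.5.1b and the TAIR10 build were used; neither the ORF caller nor how samples were combined is given in the sources used here.

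ORFs were joined from their exon blocks, and codons were taken from the transcript positions in the ORF name. Coordinates are 1-based, with the outer ORF ends uncertain by 1 base. Symbols came from RefSeq (TAIR10.1), used for names only, by the plastid gene each ORF lies in, within 2 bases. The largest ORF count of each gene was used. Their sums, over called ORFs only, were 113381941 for root and 95481490 for shoot, means of 14.8 and 12.9 counts per codon. Each ratio is the log2 of the share in shoot over that in root after adding a pseudocount of 0.5. Genes under 100 counts in both tissues were left out, and a difference of 4-fold was counted. Per-codon ratios of single genes carry no pseudocount, whereas the per-codon median and number past 4-fold among the alternatives do. Intervals are 95% exact Poisson, Clopper-Pearson binomial or, for a ratio, conditional binomial; footprints without molecular identifiers are not independent molecules. No test between tissues was made, with 1 set each. The ratio step was tested on simulated data scaled on the sum over the unchanged genes. The ratios above are scaled on the sum over all genes, so the simulation does not test that scaling.

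The members and gene lists were chosen with earlier results of these data known. Every plastid gene could be named. For nuclear lists the highest and lowest ratios and up to 2 others in list order were named; CAC1 to CAC3 and BCCP2 complete a list of 4, and RBCS1B and RBCS3B are named as not listed. Alternatives were scaling on the nuclear sum or the median ratio, a pseudocount of 5, the longest or longest identical ORF, no count filter, a count minimum of 100 for listing, coding ORFs only and merged repeat copies. Ratios per codon, and leaving out the 3 genes with out-of-frame root ORFs, were added after the data were seen. Intervals were computed with scipy 1.17.1 and tables with pandas 2.3.3 and numpy 2.4.6 under Python 3.11.15; matplotlib 3.10.9 drew the figures.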

Additional observations from a re-analysis of the deposited data

How the results depend on the processing

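The median log2 ratio of the plastid genes listed in both tissues, 3.30, became 3.64 with scaling on the median ratio, 3.34 with scaling on the nuclear sum, 2.85 over the 7 longest identical ORFs, 2.97 per codon and 2.85 over the 11 genes left without out-of-frame root ORFs. The number at least 4-fold higher in shoot, 13 of 14, became 6 of 7 with identical ORFs, where fewer genes have a value, 12 of 14 per codon and 10 of 11 without out-of-frame root ORFs. It stayed 13 under the other 5 alternatives. Values over 14 genes include the 3 with out-of-frame root ORFs, whose root and shoot counts come from different ORFs. No ratio of the 14 plastid genes changed sign; the nuclear genes were not run through the alternatives. Without psbB, plastid genes held 0.0323% of the root sum in place of 0.0470%, and without rbcL 1.64% of the shoot sum in place of 2.79%. The numbers listed in shoot only, both tissues and root only did not change with a minimum of 100 counts, coding ORFs only or merged repeat copies. The minimum and the merging could not change them. The lowest count of a plastid gene was 353 in root and 805 in shoot, and each listed symbol had 1 gene identifier. Each plastid gene had 1 ORF a tissue, so the choice of ORF moved only the sums. Counts per codon over RefSeq protein lengths were not run. No paired analysis was possible because each tissue has 1 set of ORFs and no column carries a replicate number; for the same reason no replicate could be left out. The lowest root counts of a plastid gene, 353 to 662, belong to the out-of-frame ORFs.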
